A study of Mus musculus with 12 samples.

Results

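Cybb, Cyba, Ncf1, Ncf4 and Rac2 encode subunits of the phagocyte NADPH oxidase. They were chosen by gene symbol, as subunits of this enzyme, and are 5 of the 28987 genes listed in the deposited expression table. All 5 passed the filter on low values, which 13456 genes passed.

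The phagocyte NADPH oxidase moves electrons from NADPH across a membrane to oxygen and so makes superoxide, from which neutrophils derive hydrogen peroxide and hypochlorous acid to kill microbes. Its catalytic core is a membrane cytochrome made of the products of Cybb and Cyba. In a resting cell regulatory proteins, those encoded by Ncf1 and Ncf4 among them, stay in the cytosol, and on stimulation they move to the membrane together with a Rac GTPase. Loss of Cybb, Cyba, Ncf1 or Ncf4 causes forms of chronic granulomatous disease.

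RNA was measured in 12 libraries of neutrophils sorted by flow cytometry, 3 in each of 4 groups. The groups were bone marrow of wild-type mice (BM WT), peritoneum of wild-type mice (PT WT), bone marrow of MRP8-Bcl2 mice (BM Bcl2) and peritoneum of MRP8-Bcl2 mice (PT Bcl2). The question was how neutrophils in the marrow differ from those that have entered an inflamed peritoneum, and whether a block of apoptosis alters this. All mice were of the fvb strain and all had received 2 mL thioglycollate intraperitoneally, so no group was untreated. The labels put the collection at 6 h, while the study's methods give other times. The transgene drives human Bcl-2 from regulatory regions of MRP8, a gene of myeloid cells. The labels name the source cells macrophages, whereas the design text and the methods name neutrophils. Ages and sexes were not given in the sources used here. The libraries are numbered 1 to 12 in the table and carry no mouse number, so the p-values measure the spread between libraries. The methods state that marrow and peritoneal cells were taken from each mouse, so libraries of the 2 tissues can share mice, and the tests treated all libraries as independent. The study's flow cytometry defined neutrophils as CD11b+, F4/80- and GR1++, and macrophages as F4/80+, but the gate of the RNA sort was not given in the sources used here.

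Levels are in TPM, a transcript share per length that can be set side by side between genes. TPM holds no read totals, so the depth behind each value is unknown, and between 9735 and 14305 genes were above 0 per library. The summed level of 8 neutrophil markers was 76949 to 350834 TPM in the marrow and 15089 to 70033 TPM in the peritoneum, and S100a8 and S100a9 made up most of it in every library. Ly6g was at 51.5 to 1266 TPM in the marrow and 0 to 126 TPM in the peritoneum, with the 0 in library 12, whereas Csf3r was at 132 to 1038 TPM in the marrow and 1839 to 4569 TPM in the peritoneum. Within the marrow, libraries 2, 3 and 4 had less of most of these markers than libraries 1, 5 and 6. Csf3r was at 132 to 183 against 816 to 1038 TPM and Cxcr2 at 212 to 399 against 1493 to 1864 TPM. Mmp8 was at 118 to 279 against 1721 to 3403 TPM and Retnlg at 343 to 953 against 9407 to 20198 TPM, while S100a8 overlapped. Libraries 2 and 4 also had the highest Cybb, and library 3 had 387 TPM of it. The part of this split in the results was not tested. Mouse Bcl2, to which reads of the transgene can be assigned, measured 0.219 to 2.37 TPM across WT libraries, 166 to 333 TPM in BM Bcl2, and 82.8, 58.6 and 0.695 TPM in PT Bcl2 libraries 7, 8 and 9. Library 9 thus stood at the WT level. A set of 108 genes with a GENCODE transcript that holds 31 or more A, or 31 or more T, in a row took 8.93 to 24.1% of TPM in the marrow and 15.5 to 65.6% in the peritoneum, which lowers the TPM of every other gene by construction.

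In the annotation of GRCm38, Cybb lies on the minus strand at chrX:9435252-9487771, Cyba on the minus strand at chr8:122424776-122432930 and Ncf1 on the minus strand at chr5:134220053-134229625. Ncf4, on the plus strand at chr15:78244801-78262580, and Rac2, on the minus strand at chr15:78559167-78572783, lie 297 kb apart with 17 genes between them. Cyba lies within the span of Gm20388 and the end of Ncf1 overlaps Gtf2ird2, each on the opposite strand. The counting was not stated to use strand, so reads from sequence that the transcripts of a pair share could be assigned to either gene. Whether their exons overlap was not examined. Gm20388 reached at most 15.1 TPM and Gtf2ird2 at most 36.9 TPM.

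The sequences before the starts of Cybb and Cyba are shown because these genes encode the 2 chains of 1 cytochrome and their transcripts shifted against each other. RefSeq (GRCm38.p6) gave a promoter for 3 of the 5 members, Cybb, Cyba and Ncf1. The 250 bases before the start are chrX:9469325-9469574 for Cybb and chr8:122432941-122433190 for Cyba, both on the minus strand, with motif matches in capitals.
Cybb: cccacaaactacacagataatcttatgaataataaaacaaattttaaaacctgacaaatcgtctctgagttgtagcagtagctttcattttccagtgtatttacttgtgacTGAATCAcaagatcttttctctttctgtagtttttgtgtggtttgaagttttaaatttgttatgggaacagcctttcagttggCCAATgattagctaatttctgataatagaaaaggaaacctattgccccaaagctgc
Cyba: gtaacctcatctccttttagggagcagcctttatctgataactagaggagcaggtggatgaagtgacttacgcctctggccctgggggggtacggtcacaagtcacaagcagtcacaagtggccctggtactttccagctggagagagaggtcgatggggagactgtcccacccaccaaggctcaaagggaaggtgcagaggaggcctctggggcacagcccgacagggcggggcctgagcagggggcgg

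On both strands, 5 motifs were searched from 250 bases before to 50 bases from the start: GAGGAA (the core of PU.1 sites), CCAAT, TTNNGNAAT (C/EBP sites), TGANTCA (AP-1 sites) and TATAAA. The Cybb window held TGANTCA at bases -139 to -133 and CCAAT at bases -56 to -52, counted from the start as base 0. It also held GAGGAA on the reverse strand at bases 9 to 14, past the stretch shown. The windows of Cyba and Ncf1 held none of the 5. Among 32851 promoters of the same length, 28.3% held GAGGAA, 37.4% CCAAT, 11.5% TTNNGNAAT, 7.81% TGANTCA and 13.6% TATAAA. These are matches of letters and not sites of binding. Cybb has a second coding transcript that starts 18447 bases upstream of the start used here.

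Between marrow and peritoneum, Cybb fell most among the members. Its mean level was 8.13-fold lower in the peritoneum of WT mice and 21.5-fold lower in that of Bcl2 mice. Rac2 and Ncf1 fell when the genotypes were averaged, by 1.29 and 1.19 on the log2 scale. Cyba and Ncf4 did not pass the test in any of these comparisons. Genes were called where the limma adjusted p was below 0.05 and the change on log2(TPM + 1) was 2-fold or more. This scale understates changes of low genes, the more so the lower their level.

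Cybb, the catalytic subunit that carries the heme groups and binds NADPH, was at 950, 391 and 353 TPM in BM WT libraries 4, 5 and 6 and at 70.7, 49.3 and 88.4 TPM in PT WT libraries 10, 11 and 12. In Bcl2 mice it was at 569, 1098 and 387 TPM in BM libraries 1, 2 and 3 and at 11.1, 47.1 and 37.5 TPM in PT libraries 7, 8 and 9. Every marrow library lay above every peritoneal library. The log2 change was -2.89 (SE 0.62, limma adjusted p = 0.0244) in WT and -4.47 (SE 0.62, limma adjusted p = 0.000888) in Bcl2 mice. Averaged over the genotypes it was -3.68 (SE 0.44, limma adjusted p = 9.84e-05), and 1.20% of all tested genes had a lower value. The call in WT was lost without library 4 (limma adjusted p = 0.0976), 10 (0.0821) or 11 (0.0866) and with the genes with A or T runs left out (0.0937), while the sign stayed.

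The highest Cybb values came from libraries 2 and 4, which also listed the macrophage complement genes C1qb at 17.7 and 28.4 TPM and C1qc at 13.7 and 26.9 TPM. In the other 4 marrow libraries both genes were at 0, but the highest C1qb, 32.7 TPM, was in PT Bcl2 library 7, which had the lowest Cybb. Cd68 of the same list was at 98.5 and 51.6 TPM in libraries 2 and 4, against 208 and 167 TPM in marrow libraries 6 and 3. The summed level of the 10 macrophage markers was 49.2 to 233 TPM in the marrow and 165 to 716 TPM in the peritoneum, and 5 to 10 of the 10 were above 0. The summed level of the 6 monocyte and dendritic cell markers, led by Ly6c2, was 373 to 1413 TPM in the marrow and 43.5 to 99.9 TPM in the peritoneum. It was thus lower in the peritoneum, as Cybb was, while within the marrow its highest sums were in libraries 3 and 6, with 387 and 353 TPM Cybb. Their part in the result was not tested. In these bulk libraries, fewer cells of a type and less RNA per cell cannot be told apart. Without libraries 2 and 4, a choice made after the data were seen, the log2 change of Cybb in WT was -2.44 (limma adjusted p = 0.118).

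Cyba encodes the smaller chain, which stabilises the product of Cybb. The BM WT libraries held 134, 185 and 143 TPM and the PT WT libraries 85.5, 67.4 and 59.2 TPM of it. The values of the Bcl2 mice were 165, 146 and 146 TPM in the marrow and 192, 103 and 54.3 TPM in the peritoneum. The WT groups did not overlap, whereas PT Bcl2 spanned the whole BM Bcl2 range, with library 7 above it. The log2 changes of -1.11 (SE 0.51, limma adjusted p = 0.292) in WT and -0.57 (SE 0.51, limma adjusted p = 0.440) in Bcl2 mice did not pass the test. The mean of the genotypes was -0.84 (SE 0.36, limma adjusted p = 0.112), and without library 7 it passed at -1.07 (limma adjusted p = 0.0301). The genes with A or T runs took 15.5% of TPM in library 7, against 60.2 and 65.6% in PT Bcl2 libraries 8 and 9. With those genes left out, the log2 change of Cyba in Bcl2 mice was 0.18 (limma adjusted p = 0.833).

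**Figure D1:**
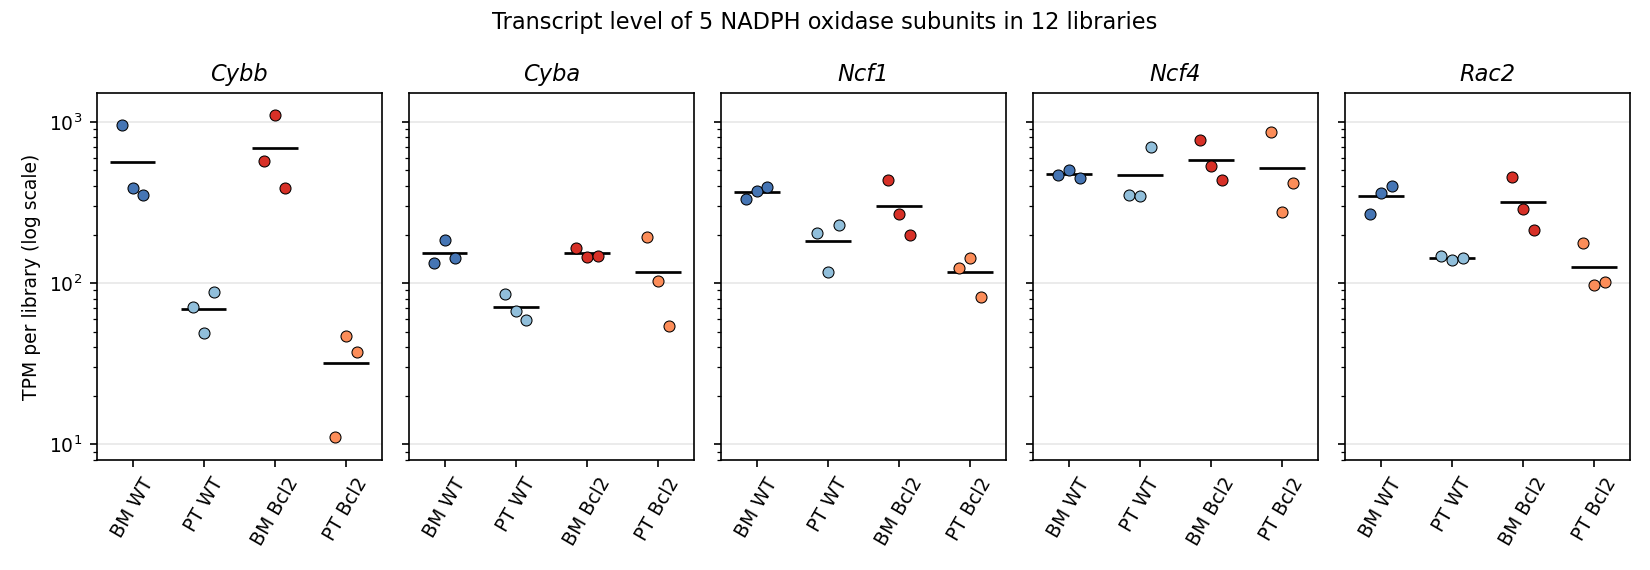
TPM of each member in each library on a log axis, by group, with a bar at the group mean of 3 libraries. Cybb separates marrow from peritoneum in both genotypes by more than any other member, and the Ncf4 groups overlap.

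Among the cytosolic subunits, Ncf1 encodes the organiser that docks on the Cyba product after phosphorylation. Its level was 333, 372 and 397 TPM in the marrow and 204, 117 and 230 TPM in the peritoneum of WT mice. The BM Bcl2 libraries held 437, 268 and 198 TPM and the PT Bcl2 libraries 124, 143 and 81.9 TPM. As deposited, the groups did not overlap in either genotype. The log2 changes were -1.05 (SE 0.48, limma adjusted p = 0.287) in WT and -1.32 (SE 0.48, limma adjusted p = 0.0598) in Bcl2 mice, and the mean of the genotypes, -1.19 (SE 0.34, limma adjusted p = 0.0237), passed. It no longer passed without library 1 (0.0513), 9 (0.0510) or 11 (0.0691), without libraries 2 and 4 (0.0758), without the 100 highest genes (0.0539) or without the trend in limma's variance model (0.0524).

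Ncf4 encodes a subunit that binds a phosphoinositide of the phagosome membrane. The BM WT libraries held 465, 504 and 447 TPM and the PT WT libraries 351, 348 and 703 TPM of it. The level in Bcl2 mice was 769, 535 and 438 TPM in the marrow and 866, 277 and 420 TPM in the peritoneum. Marrow and peritoneum overlapped in both genotypes, and the highest peritoneal value of each genotype exceeded all of its marrow values. The log2 change was -0.09 (SE 0.50, 95% confidence interval -1.15 to 0.97, limma adjusted p = 0.952) in WT and -0.28 (SE 0.50, interval -1.34 to 0.78, limma adjusted p = 0.710) in Bcl2 mice. Intervals of this width hold 2-fold changes. PT WT library 12, with the highest Ncf4 among the WT libraries, listed the mast cell protease gene Cpa3 at 481 TPM, against 0.825 to 27.4 TPM in the other 11 libraries. The 5 mast cell markers summed to 633 TPM there and to 1.4 to 57.8 TPM elsewhere, and their part in the Ncf4 value was not tested. Library 7, with the highest Ncf4 of all, had a mast cell sum of 24.9 TPM. The genes with A or T runs took 20.0% of TPM in library 12, against 50.8 and 54.2% in PT WT libraries 10 and 11. Their share was 15.5% in library 7, against 60.2 and 65.6% in PT Bcl2 libraries 8 and 9. With those genes left out, the log2 change of Ncf4 was 0.45 in WT and 0.47 in Bcl2 mice, and neither passed.

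Rac2 encodes the Rac GTPase found mainly in blood cells, which activates the assembled enzyme. Marrow libraries of WT mice held 269, 364 and 403 TPM of it and peritoneal ones 147, 140 and 143 TPM. The level in BM Bcl2 was 455, 288 and 215 TPM, and in PT Bcl2 it was 177, 97.1 and 101 TPM. As deposited, the groups did not overlap in either genotype, and the PT WT libraries had a coefficient of variation of 2.54%. The genes with A or T runs took 50.8, 54.2 and 20.0% of TPM in PT WT libraries 10, 11 and 12, so this spread depends on the scaling. The log2 change was -1.24 (SE 0.46, limma adjusted p = 0.180) in WT and -1.33 (SE 0.46, limma adjusted p = 0.0517) in Bcl2 mice, and the mean of the genotypes, -1.29 (SE 0.33, limma adjusted p = 0.0137), passed. Without library 7 the value in Bcl2 mice passed as well, at -1.61 (limma adjusted p = 0.0313).

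In WT, 1 of the 5 members was called, against 2.81% of all tested genes (1.22% lower and 1.59% higher in the peritoneum), and 4 of 5 had all peritoneal libraries below all marrow libraries, against 7.97%. In Bcl2 mice 1 of 5 was called, against 21.4% (19.1% lower and 2.31% higher), and 3 of 5 did not overlap downward, against 32.6%. With the genotypes averaged 3 of 5 were called, against 19.2% (14.1% lower and 5.13% higher). The median log2 change of the members was -1.11 in WT, -1.32 in Bcl2 mice and -1.19 on average, beside medians of 0.22, -1.02 and -0.40 over all tested genes. In Bcl2 mice 42.2% of all tested genes had a lower value than Rac2 and 42.5% a lower value than Ncf1, against 1.87% for Cybb.

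That shift depended on the scaling. Of all genes called in WT, 214 were higher and 164 lower as deposited, 112 and 197 after centring (the median of each library set equal), 233 and 264 with quantile normalization, and 485 and 109 without the genes with A or T runs. In Bcl2 mice the same splits were 311 and 2567, 1636 and 467, 678 and 779, and 543 and 1088. For the mean of the genotypes they were 690 and 1891, 1752 and 862, 1233 and 1249, and 1226 and 933. With centring, the mean log2 change was -0.60 for Rac2 and -0.50 for Ncf1, and without the genes with A or T runs it was -0.64 and -0.54, and neither gene passed in either case. In Bcl2 mice centring turned the sign of Cyba (1.02), Ncf1 (0.27), Ncf4 (1.31) and Rac2 (0.26). The Cybb value there was -2.88 with centring and passed.

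**Figure D2:**
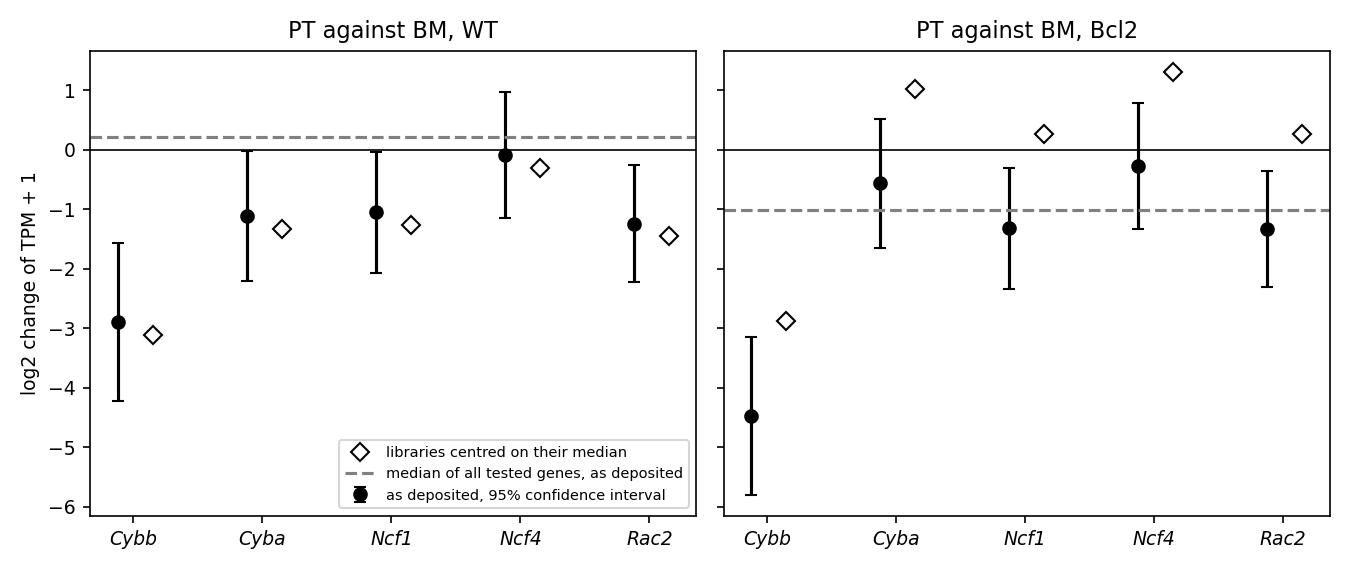
Log2 change of TPM + 1 from marrow to peritoneum for each member in WT and Bcl2 mice. Filled points with 95% confidence intervals are the deposited values, open diamonds the libraries centred on their median, and the dashed line the median of all tested genes. Cybb stays below 0 with either scaling, while the other members move above 0 in Bcl2 mice with centring.

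Ratios between members within a library do not depend on the scaling, so the 10 pairs were compared between marrow and peritoneum by a two-sided exact permutation test within genotype. With 400 arrangements the smallest p it allows is 0.005. The ratio fell by 2.84 on the log2 scale, or 7.16-fold, for Cybb to Cyba. It fell 5.63-fold for Cybb to Ncf1, 11.3-fold for Cybb to Ncf4 and 5.25-fold for Cybb to Rac2, and the ratio of Ncf4 to Rac2 rose 2.14-fold (exact permutation p = 0.005 for each of the 5 pairs, adjusted p = 0.01 over the 10 pairs). The ratio of Ncf1 to Ncf4 fell 2.00-fold (exact permutation p = 0.015, adjusted p = 0.025). The 4 ratios among Cyba, Ncf1 and Rac2 and of Cyba to Ncf4 did not pass, with exact permutation p from 0.08 to 0.65.

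The transcript of Cybb thus fell relative to each of the other 4 members. Cybb stood at 7.09, 2.11 and 2.48 times Cyba in BM WT and at 0.826, 0.731 and 1.49 times in PT WT. The Bcl2 libraries had Cybb at 3.44, 7.52 and 2.64 times Cyba in BM and at 0.0577, 0.458 and 0.691 times in PT. Neither genotype overlapped. Leaving out any of the 12 libraries, the 4 ratios with Cybb and that of Ncf4 to Rac2 passed each time, that of Ncf1 to Ncf4 passed 8 times and that of Cyba to Ncf4 passed 1 time. Without libraries 2 and 4, Cybb to Cyba fell 5.10-fold (exact permutation adjusted p = 0.04).

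The transcripts of Ncf4 and Rac2, both genes of chromosome 15, changed unequally. Ncf4 stood at 1.73, 1.38 and 1.11 times Rac2 in BM WT and at 2.39, 2.49 and 4.91 times in PT WT. In Bcl2 mice it stood at 1.69, 1.86 and 2.04 times in BM and at 4.89, 2.85 and 4.15 times in PT. All 6 peritoneal ratios exceeded all 6 marrow ratios.

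The order of the levels changed accordingly. In BM WT the order of the mean TPM was Cybb (565 ± 334, SD, n = 3), Ncf4 (472 ± 29.1), Ncf1 (367 ± 32.4), Rac2 (345 ± 68.9) and Cyba (154 ± 27.4), where Cybb overlapped Ncf4 and Ncf1 overlapped Rac2. In PT WT it was Ncf4 (467 ± 204), Ncf1 (183 ± 59.2), Rac2 (143 ± 3.63), Cyba (70.7 ± 13.5) and Cybb (69.4 ± 19.6), where Ncf1 overlapped Rac2 and Cyba overlapped Cybb. The top place of Cybb in BM WT rested on library 4, since Ncf4 exceeded it in libraries 5 and 6, and its last place in PT WT was within the spread of Cyba.

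In BM Bcl2 the order was Cybb (685 ± 370), Ncf4 (581 ± 170), Rac2 (319 ± 123), Ncf1 (301 ± 123) and Cyba (153 ± 11.1), and only Cyba stood clear of its neighbour. In PT Bcl2 it was Ncf4 (521 ± 307), Rac2 (125 ± 45.0), Cyba (117 ± 70.1), Ncf1 (116 ± 31.4) and Cybb (31.9 ± 18.6), with Ncf4 and Cybb clear of theirs. Among all tested genes, Cybb ranked 92nd by mean TPM in BM WT and 84th in BM Bcl2, but 1259th in PT WT and 2140th in PT Bcl2. Ncf4 kept a rank between 106 and 159 in all 4 groups.

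**Figure D3:**
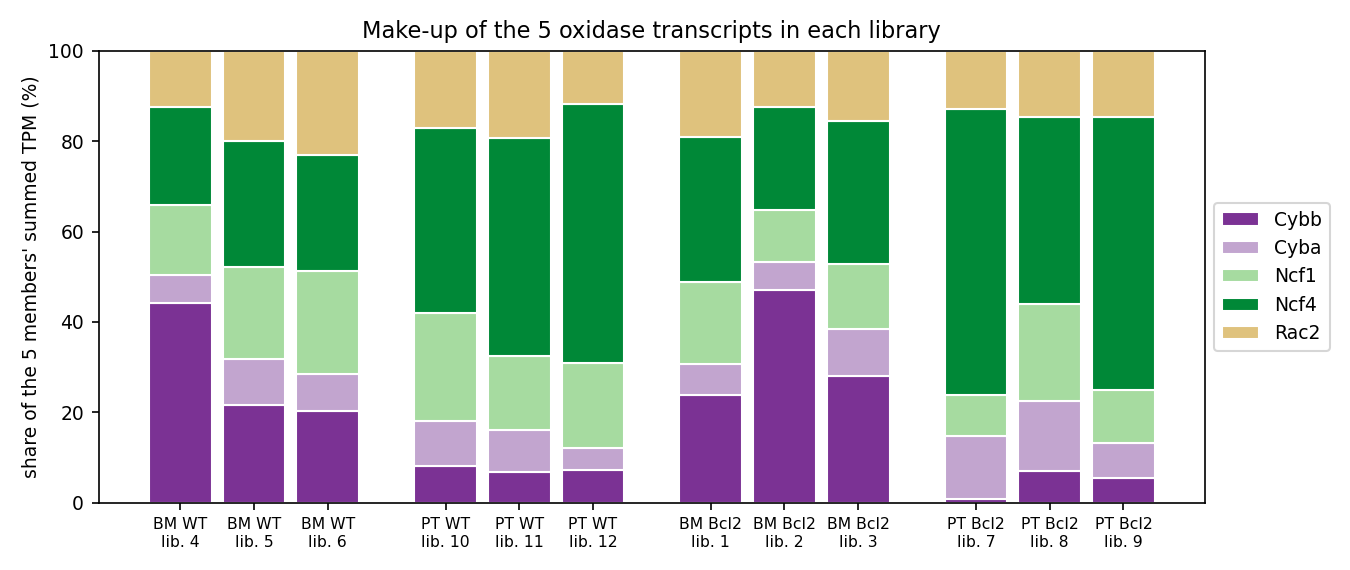
Share of each member in the summed TPM of the 5 members, in percent, for each library. The Cybb share is 20.3 to 47.0% in the 6 marrow libraries and 0.81 to 8.23% in the 6 peritoneal libraries, and the Ncf4 share is 21.6 to 32.1% and 40.9 to 63.2%.

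The 5 members summed to 1742 to 2151 TPM in the marrow and 721 to 1223 TPM in the peritoneum of WT mice. The sums of the Bcl2 mice were 1384 to 2395 TPM in the marrow and 667 to 1370 TPM in the peritoneum. All peritoneal sums lay below all marrow sums as deposited, narrowly so for library 7 (1370 TPM) against marrow library 3 (1384 TPM). These sums depend on the scaling, and the genes with A or T runs took 60.2 and 65.6% of TPM in PT Bcl2 libraries 8 and 9, against 13.8% in library 3. Cybb made up 20.3 to 47.0% of the sum in the marrow and 0.81 to 8.23% in the peritoneum, and Ncf4 made up 21.6 to 32.1% and 40.9 to 63.2%. The shares of Ncf1 and Rac2 overlapped between marrow and peritoneum in both genotypes.

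Between genotypes no member was called. In the marrow the log2 change of Bcl2 against WT ranged from -0.36 for Ncf1 to 0.29 for Cybb, with 0 of 5 members called by limma against 0.0223% of all genes. In the peritoneum it ranged from -1.28 for Cybb to 0.55 for Cyba, with 0 of 5 called against 0.0297%. At an unadjusted p under 0.05 the count was 0 in both, against 7.36% and 12.7% of all genes. Cybb in the peritoneum did not overlap between genotypes, as did 18.8% of all genes in that direction, with a log2 change of -1.28 (95% confidence interval -2.61 to 0.05, limma adjusted p = 0.410). The other members overlapped between genotypes in both tissues.

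The change from marrow to peritoneum was not shown to differ between genotypes for any member. The interaction called 0 of 5 members by limma, against 0.0149% of all genes, and at an unadjusted p under 0.05 the count was also 0, against 16.9%. For Cybb the difference of the log2 changes was -1.58 (95% confidence interval -3.45 to 0.30, limma adjusted p = 0.362), beside a median of -1.18 over all tested genes, and it was 0.23 with centring. Library 9, with Bcl2 at the WT level, had 37.5 TPM Cybb, between the 11.1 and 47.1 TPM of the other PT Bcl2 libraries.

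Of 11 relatives and chaperones of NADPH oxidases, 4 were tested, and 6 (Nox3, Noxa1, Duox1, Duox2, Duoxa1 and Duoxa2) were listed at 0 in every library. Rac1, the GTPase that most cells use, fell in Bcl2 mice by 1.28 on the log2 scale (limma adjusted p = 0.0498), but its log2 change there was 0.31 with centring. That call was lost without library 1, 2, 3, 4, 5, 6, 8, 9, 10 or 11, with adjusted p from 0.0540 to 0.173. Cybc1, a chaperone needed for the cytochrome, had a mean log2 change of -0.69 (SE 0.58, limma adjusted p = 0.422).

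Of 18 genes of assembly and activation, 5 fell and 1 rose with the genotypes averaged, against 14.1% and 5.13% of all tested genes. In WT 2 fell, against 1.22%, and in Bcl2 mice 5 fell, against 19.1%. Arhgdib, which holds Rac proteins in the cytosol, had the largest averaged fall of the list, from 2491 to 3689 TPM in the marrow to 146 to 479 TPM in the peritoneum, and it was called in both genotypes (mean log2 change -3.64, SE 0.32). Coro1a, an actin regulator known to bind the Ncf4 product, was also called in both (mean -1.69, SE 0.31), but its log2 change in Bcl2 mice was 0.04 with centring. The WT call of Coro1a was lost without library 2, 4, 5, 6, 10, 11 or 12 (limma adjusted p 0.0569 to 0.124) and its Bcl2 call without library 1, 2, 3, 8 or 9 (0.0535 to 0.0623). Pak1, a kinase downstream of Rac (-3.16, SE 0.48), Hvcn1, the proton channel that balances the charge moved by the oxidase (-2.47, SE 0.49), and Prkcb, a kinase that phosphorylates the Ncf1 product (-1.67, SE 0.48), fell on average. Pak2, of the same list, was at 539 to 954 TPM in BM WT, against 27.8 to 50.8 TPM for Pak1. Its mean was 1.56-fold higher in the peritoneum of WT and 1.57-fold higher in that of Bcl2 mice, and it was not called. Pik3r5, a regulatory subunit of phosphoinositide 3-kinase gamma, rose (1.20, SE 0.34). Prkcb no longer passed without library 2, 4, 10 or 11 (limma adjusted p 0.0563 to 0.0658) and Pik3r5 without library 2, 3, 4, 10 or 11 (0.0538 to 0.0713). The median over the 18 was -0.04, beside -0.40 over all genes.

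Of 12 tested enzymes that act on superoxide and peroxide, 4 fell and 1 rose on average, against 14.1% and 5.13% of all genes, with a median of -1.22. Mpo, which makes hypochlorous acid from the peroxide and is transcribed in early granulocyte precursors, was at 263 to 3698 TPM in the marrow and 4.06 to 17.2 TPM in the peritoneum (mean log2 change -7.07, SE 0.49). Prdx5 (-4.25, SE 0.43), Gpx1 (-2.59, SE 0.42) and Prdx3 (-2.24, SE 0.60), which reduce peroxides, fell as well. Txnrd1, which keeps thioredoxin reduced, rose (1.54, SE 0.49), a call that was lost without any of 9 libraries (1 to 5, 7 and 10 to 12, limma adjusted p 0.0551 to 0.0831). Prdx3 was lost without library 3 (0.0517) or 10 (0.0544). Prdx2 fell in Bcl2 mice (-4.02, SE 0.78) and had a log2 change of 1.40 (SE 0.78, limma adjusted p = 0.390) in WT, where all peritoneal values lay above all marrow values, as in 14.9% of all genes. The interaction for Prdx2, -5.42 (SE 1.11, limma adjusted p = 0.144), did not pass.

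NADPH, the electron donor of the oxidase, is made in the cytosol by the pentose phosphate pathway, at the steps of G6pdx and Pgd, and by Idh1 and Me1. Of 7 enzymes of that pathway and of NADPH supply, 4 fell on average, against 14.1% of all genes, with a median of -2.57. G6pdx, the first enzyme of the pentose phosphate pathway, was at 298 to 601 TPM in the marrow and 38.7 to 93.3 TPM in the peritoneum and was called in both genotypes (mean log2 change -3.01, SE 0.35). Tkt, of the same pathway but not itself a source of NADPH, was also called in both (mean -3.95, SE 0.49), in WT not without library 4, 5, 6, 10 or 11 (limma adjusted p 0.0538 to 0.121). Idh1 fell on average (-2.57, SE 0.60), but its WT groups overlapped, at 8.15 to 32.4 TPM in the marrow and 2.69 to 11.2 TPM in the peritoneum. In PT Bcl2 it was at 0 to 3.34 TPM. Pgls, the lactonase between G6pdx and Pgd, was called too, but was listed at 0 in all 3 PT WT libraries and at most 0.795 TPM in PT Bcl2, against 0 to 17.4 TPM in BM WT and 13.7 to 18.5 TPM in BM Bcl2.

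Of 7 transcription factors known to act on phagocyte oxidase genes, 2 fell on average, against 14.1% of all genes, with a median of -0.21. Spi1, which encodes PU.1, was at 278 to 530 TPM in the marrow and 302 to 416 TPM in the peritoneum, with a mean log2 change of -0.06 (SE 0.29, limma adjusted p = 0.899) as deposited and 0.62 with centring. Cebpe, needed for late granulocyte maturation, fell (-3.55, SE 0.74), as did Irf8 (-1.96, SE 0.62), at levels of at most 73.9 TPM. In WT 0 of the 7 factors were called, against 2.81% of all genes, and marrow and peritoneum overlapped for Cebpe and Irf8. In PT Bcl2 the levels were at most 2.08 TPM for Cebpe and 1.12 TPM for Irf8. The call of Irf8 was lost without library 3, 5, 6, 7, 8, 10 or 12 (limma adjusted p 0.0561 to 0.103). Cebpa fell in Bcl2 mice (-2.31, SE 0.72) from levels of at most 13.6 TPM and had a log2 change of 1.89 (SE 0.72, limma adjusted p = 0.195) in WT. The Bcl2 call of Cebpa was lost without library 3, 7, 8 or 9 (0.0522 to 0.157), and its interaction, -4.20 (SE 1.02, limma adjusted p = 0.192), did not pass.

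**Figure D4:**
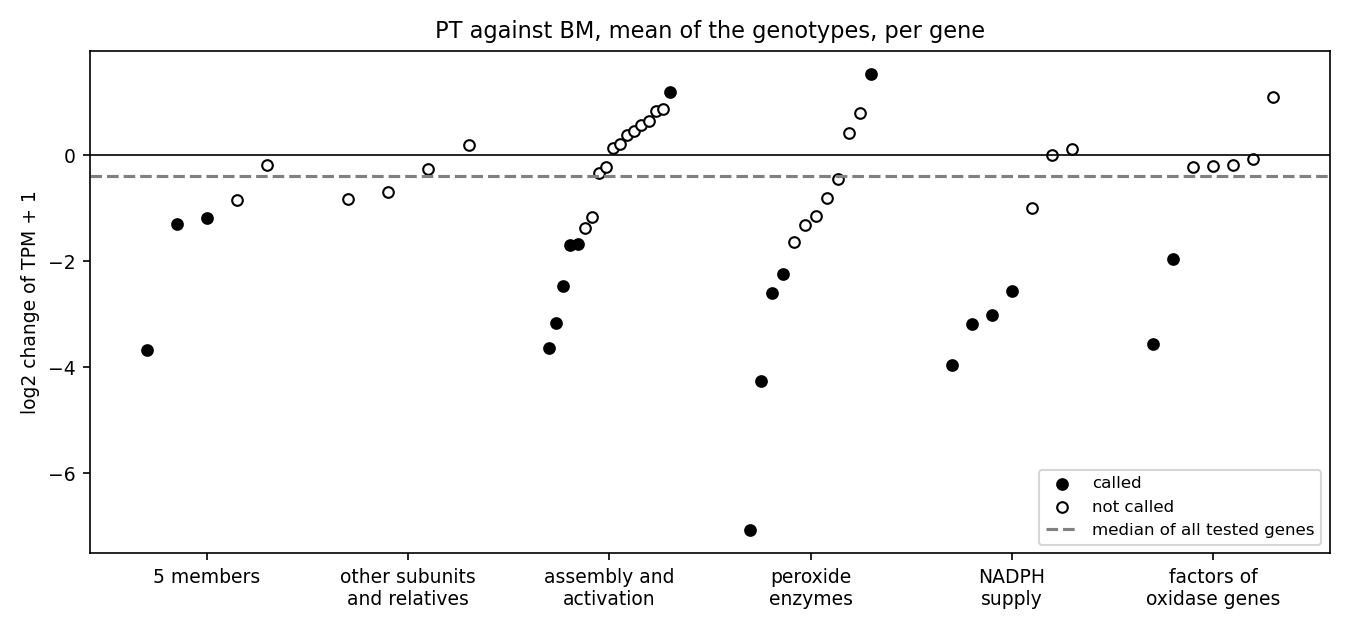
Mean log2 change of TPM + 1 from marrow to peritoneum over the genotypes, 1 point per tested gene, for the 5 members and 5 lists of related genes. Filled points were called, open points were not, and the dashed line is the median of all tested genes (-0.40).

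Among 6141 genes with a mean of at least 10 TPM, those most like each member over the 12 libraries were found by Pearson's r of log2(TPM + 1), as a description of libraries that share group and scaling. For Cybb they were Tbc1d8 (r = 0.984), Ly75 (0.982) and Hacd2 (0.981), and for Rac2 they were Pram1 (0.958), Cnn2 (0.956) and Arid3a (0.949). For Cyba they were Mafg (0.946), Slc25a24 (0.941) and App (0.939), and for Ncf1 they were Trem3 (0.926), Scrg1 (0.918) and Lrrk2 (0.913). For Ncf4 they were Plaur (0.922), Tbc1d2b (0.900) and Acap1 (0.893). No gene stood in the lists of 2 members.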

How the data were processed

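RNA of neutrophils in 12 libraries was compared. The authors processed paired-end reads in AltAnalyze with its default settings, and the deposited unit is log2(TPM + 1) per gene and library. The version, the aligner and the build were not given in the sources used here. Further deposited columns with the authors' averages, fold changes, p-values, marker and lineage scores were not used, nor were 2 columns of a single library that names no sample. Groups came from the library names in the header of a deposited table, matched to the labels.

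The members and lists were chosen with earlier results of these data known. Values were turned back to TPM, and the 13456 genes that reached 1 TPM in 3 or more libraries were tested. Of 28987 genes, 27458 were matched to GENCODE M21 by Ensembl ID. limma 3.58.1 (R 4.3.3; lmFit, contrasts.fit, eBayes with trend) was fitted to log2(TPM + 1) in 1 model of 4 group means, with Benjamini-Hochberg adjustment over all tested genes. Calls needed an adjusted p below 0.05 and a change of 2-fold or more, except for the interaction, where no size was set. No counts were available across the libraries, so no count test was run. The fit was tested on simulated data. Ratios of members were compared by exact permutation in Python 3.11.15. Named were the members, Rac1, Cybc1, Spi1, per list at most 6 called genes with the smallest p for the mean of the genotypes, and the 3 genes most like each member. 1 further gene is not reported here. C1qb, C1qc and Cpa3 were named after their values were seen. Lists of B cell, T cell, eosinophil and erythroid markers were also summed: 32.9 to 268 TPM in the marrow and 239 to 1433 in the peritoneum for B cells, 39.3 to 71.2 and 7.3 to 177 for T cells, 1.6 to 9.6 and 5.8 to 34.9 for eosinophils (Epx at 0 throughout), and 66.3 to 1375 and 0.5 to 9.3 for erythroid cells. Ighm was the largest part of the B cell sum and Cd3d of the T cell sum in every library. Alternatives covered the pseudocount, filter, scaling, genes in the TPM total, variance model, threshold and each library left out.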

Additional observations from a re-analysis of the deposited data

How the results depend on the processing

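Cybb in Bcl2 mice (log2 change -4.85 to -2.88) and on average (-3.87 to -2.99) passed under every alternative run. Of 5 members, the number called was 0 in WT without the genes with A or T runs, without libraries 2 and 4 and without libraries 2, 4, 9 and 12, and 0 to 1 with each library left out. In Bcl2 mice it was 2 with a pseudocount of 0.1, with no filter or with at least 5 TPM in 3 libraries, 3 at an adjusted p under 0.1, and 1 to 2 with each library left out. On average it was 1 with centring, without the genes with A or T runs or without libraries 2, 4, 9 and 12, and 2 to 4 with each library left out. Between 5 and 7 of the 10 ratios passed with each library left out. Of the 15 genes most like a member, 6 remained with Spearman's rho and 5 with centring. Signs turned in 59 cases, 2 of them (Rac1 and Coro1a) for a called value, and the cause was not tested. With centring the log2 change in Bcl2 mice became 1.02 for Cyba, 0.27 for Ncf1, 1.31 for Ncf4, 0.26 for Rac2, 0.31 for Rac1 and 0.040 for Coro1a, and on average 0.50 for Ncf4 and 0.62 for Spi1. Centring also ended the averaged calls of Coro1a, Prkcb, Prdx3 and Irf8, the calls of G6pdx and Cebpa in Bcl2 mice and that of Coro1a in WT. Fitting only the groups compared ended those of Coro1a in both genotypes, Tkt in WT, and Rac1 and Cebpa in Bcl2 mice. Without limma's trend, those of Coro1a in both genotypes, Rac1 in Bcl2 mice and Txnrd1 on average were lost. Without the 100 highest genes, those of Tkt in WT, Coro1a, Rac1 and Cebpa in Bcl2 mice and Prkcb on average were lost. Leaving out the genes with A or T runs ended the averaged calls of Prkcb, Prdx3 and Irf8, those of Cebpa, Rac1 and Coro1a in Bcl2 mice and those of Tkt and Coro1a in WT, and quantile normalization ended the averaged calls of Prkcb, Prdx3 and Irf8 and those of Cebpa, Rac1 and Coro1a in Bcl2 mice. A pseudocount of 0.1 ended the call of Tkt in WT. No filter ended the calls of Cebpa in Bcl2 mice and of Irf8 and Txnrd1 on average. With centring the interaction became 0.23 for Cybb, 1.53 for Ncf1, 1.62 for Ncf4 and 1.72 for Rac2. Bcl2 against WT became, with centring, -0.44 for Cybb and -0.48 for Ncf4 in the marrow and 0.44 for Ncf1 and 0.82 for Rac2 in the peritoneum. Quantile normalization turned the interaction of Ncf1 (0.17), Ncf4 (0.20) and Rac2 (0.29). Without the genes with A or T runs, Cyba was at 0.18 in Bcl2 mice, Ncf4 at 0.45 in WT, 0.47 in Bcl2 mice and 0.46 on average, Spi1 at 0.58 on average, and the interaction at 0.017 for Ncf4 and 0.11 for Rac2. Without the 100 highest genes, Ncf4 was at 0.21 in Bcl2 mice, Spi1 at 0.080 on average, the interaction at 0.41 for Ncf1, 0.50 for Ncf4 and 0.59 for Rac2, and Bcl2 against WT at -0.075 for Cybb and -0.11 for Ncf4 in the marrow and 0.063 for Rac2 in the peritoneum. The interaction was 0.041 for Rac2 without libraries 2 and 4, and 0.17 for Ncf1, 0.19 for Ncf4 and 0.16 for Rac2 without libraries 2, 4, 9 and 12. With each library left out, Ncf4 ranged from -0.43 to 0.077 in WT and from -0.73 to 0.094 in Bcl2 mice, Spi1 from -0.18 to 0.032 on average, and the interaction from -0.57 to 0.036 for Ncf1, -0.63 to 0.19 for Ncf4 and -0.37 to 0.20 for Rac2. Bcl2 against WT ranged from -0.11 to 0.74 for Cybb, -0.093 to 0.14 for Cyba and -0.45 to 0.090 for Rac2 in the marrow and from -0.37 to 0.45 for Ncf4 in the peritoneum. Counts of all genes called moved by over 1.5 times as well, in WT from 27 without libraries 2, 4, 9 and 12 to 710 at an adjusted p under 0.1, beside 378. The settings for listed genes other than the members, and both sets of several libraries left out, were chosen after the data were seen. No paired analysis was possible because the library columns carry no mouse or replicate number that ties them to the numbered samples, although marrow and peritoneal libraries can come from the same mice. Depth is unknown, and 3 libraries per group leave 2-fold changes within the intervals of most members.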
